A study of Mus musculus with 12 samples.

Results

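With CTCF peak lists of equal length for the fed and starved livers, 261 sites were kept in all 3 fed lists and in no starved list. They were found by taking the 23926 highest-scored peaks of each library, joining kept peaks that overlapped by at least 1 bp into sites, and keeping the sites with a peak in fed 1, fed 2 and fed 3 and none in starved 1, starved 2 or starved 3. These fed-only sites were 261 of 28133 sites in all and 1.2% of the 21707 sites in all 3 fed lists. The opposite rule gave 103 starved-only sites, 0.511% of the 20149 sites in all 3 starved lists. The lists came from chromatin immunoprecipitation and sequencing (ChIP-seq) of CTCF in whole livers of wild-type male C57BL6/Ncrl mice, 3 to 4 months old and on normal chow. The 3 fed livers came from mice with free access to food and were taken at ZT16 (zeitgeber time, hours after lights on). The 3 starved livers came from mice without food for 24 h and were taken at ZT13, so feeding and collection time cannot be told apart. The labels name no separate animals for the libraries of a group, so differences between them may be technical.

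CTCF is a zinc finger protein that binds a long, directional DNA motif and stops the cohesin ring as it extrudes chromatin loops, so that pairs of CTCF sites often mark loop anchors and domain borders. Its sites range from strong ones, occupied in most tissues, to weak ones whose occupancy varies with the cell type and with DNA methylation of the motif. In the liver, as elsewhere, many sites lie far from genes and a part lies at promoters.

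The score of a peak is the authors' own value. Its position is its place in its library's list, with 1 for the highest score, and a member's worst fed position is the largest of its 3 fed positions. Scores at the same position differed between the libraries, and whether they share a scale was not tested. The lowest kept score was 49.8, 41.6 and 78.7 in fed 1, 2 and 3, and 10.9, 2.08 and 10.7 in starved 1, 2 and 3. The full lists held 56103, 49030 and 74950 peaks in fed 1, 2 and 3 and 30752, 23926 and 29866 in starved 1, 2 and 3. Starved 2 is thus kept whole, and a site missing there has no peak of any score in that library. The number of reads behind each list is unknown.

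Sequence was at hand for the promoter windows of RefSeq (GRCm38.p6, the build mm10 of the peak lists), which run from 250 bases before to 50 after a gene start. Of the 254 fed-only sites on chromosomes with such windows, 16 (6.30%, exact 95% interval 3.64 to 10.03) overlapped one. The share was 7.71% over the shared sites (kept in all 6 lists) in the same range of positions. The CTCF core was searched on both strands as CC, any 3 bases, AGG, any base and GGC. A looser core left the second G of AGG open, so that each match to the first is also one to the looser core. Below are the 250 bases upstream of the gene start, 5′ to 3′ on the gene's strand, for the best-placed fed-only site and for the 4 fed-only sites whose window held a match. Capitals mark a match. Wfdc10 has no match to either core, Slc29a1 and Scn8a match the core, and Stox1 and Gpr3 match the looser one alone. Scn8a and Gpr3 were chosen after their values were seen.
Wfdc10, chr2:164655796-164656045, plus strand: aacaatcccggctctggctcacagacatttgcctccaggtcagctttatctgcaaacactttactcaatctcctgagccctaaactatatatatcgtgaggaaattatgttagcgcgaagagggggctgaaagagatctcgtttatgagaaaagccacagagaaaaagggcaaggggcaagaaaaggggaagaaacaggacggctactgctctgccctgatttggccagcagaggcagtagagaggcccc
Slc29a1, chr17:45593650-45593899, minus strand: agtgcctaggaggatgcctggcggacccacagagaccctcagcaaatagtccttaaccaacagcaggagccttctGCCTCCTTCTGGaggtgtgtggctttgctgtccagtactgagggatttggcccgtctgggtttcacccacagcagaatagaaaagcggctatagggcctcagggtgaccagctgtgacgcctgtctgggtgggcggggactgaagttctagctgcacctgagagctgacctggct
Scn8a, chr15:100870395-100870644, plus strand: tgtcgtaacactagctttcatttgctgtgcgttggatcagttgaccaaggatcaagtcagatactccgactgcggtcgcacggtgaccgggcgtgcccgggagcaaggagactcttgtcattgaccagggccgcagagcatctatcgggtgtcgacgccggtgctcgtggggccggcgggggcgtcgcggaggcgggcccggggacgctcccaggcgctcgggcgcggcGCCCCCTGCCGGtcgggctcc
Stox1, chr10:62726095-62726344, minus strand: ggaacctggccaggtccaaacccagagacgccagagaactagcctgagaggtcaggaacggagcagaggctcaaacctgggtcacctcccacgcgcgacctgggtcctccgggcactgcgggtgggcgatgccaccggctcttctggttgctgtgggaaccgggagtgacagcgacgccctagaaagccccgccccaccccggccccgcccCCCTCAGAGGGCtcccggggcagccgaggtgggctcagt
Gpr3, chr4:133212537-133212786, minus strand: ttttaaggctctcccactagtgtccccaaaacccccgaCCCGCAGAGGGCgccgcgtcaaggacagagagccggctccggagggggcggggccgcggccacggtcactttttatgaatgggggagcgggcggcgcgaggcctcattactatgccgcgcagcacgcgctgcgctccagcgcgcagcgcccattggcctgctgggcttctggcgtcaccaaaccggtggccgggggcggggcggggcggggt

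Each of the 4 matches shown lay inside the called site, and the window of Stox1 held a further match past the gene start, in the part not shown. Counted by site, 2 of the 16 fed-only sites with a window (12.5%, exact 95% interval 1.55 to 38.3) had the core in a window and 4 (25.0%) the looser core. At the 1816 shared sites with a window the shares were 19.8% and 32.5%, and 1 of the 12 starved-only sites (kept in all 3 starved and no fed list) with a window had the core. A site can overlap several windows. Counted by window, 2 of the 20 at fed-only sites held the core (exact 95% interval 1.23 to 31.7) and 4 the looser core, against 18.1% and 29.2% of the 2248 windows at shared sites and 3.43% and 8.61% of all 32851 windows. A match is a description of these letters, and a window without one says nothing of the rest of the site.

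The fed-only sites sat at the weak end of the kept lists. Their positions ran from 12353 to 23893 (median 21625) in fed 1, from 12639 to 23917 (median 21279) in fed 2 and from 14328 to 23926 (median 21274) in fed 3. Their scores ran from 49.9 to 122 (median 61.9) in fed 1, from 41.6 to 112 (median 54.4) in fed 2 and from 78.7 to 162 (median 98.3) in fed 3. The worst position came from fed 1 for 99 sites, from fed 2 for 81 and from fed 3 for 81, and the 3 positions of a site lay 2408 apart in the median (170 to 10165). These values chose the sites and are given without a test.

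**Figure D1:**
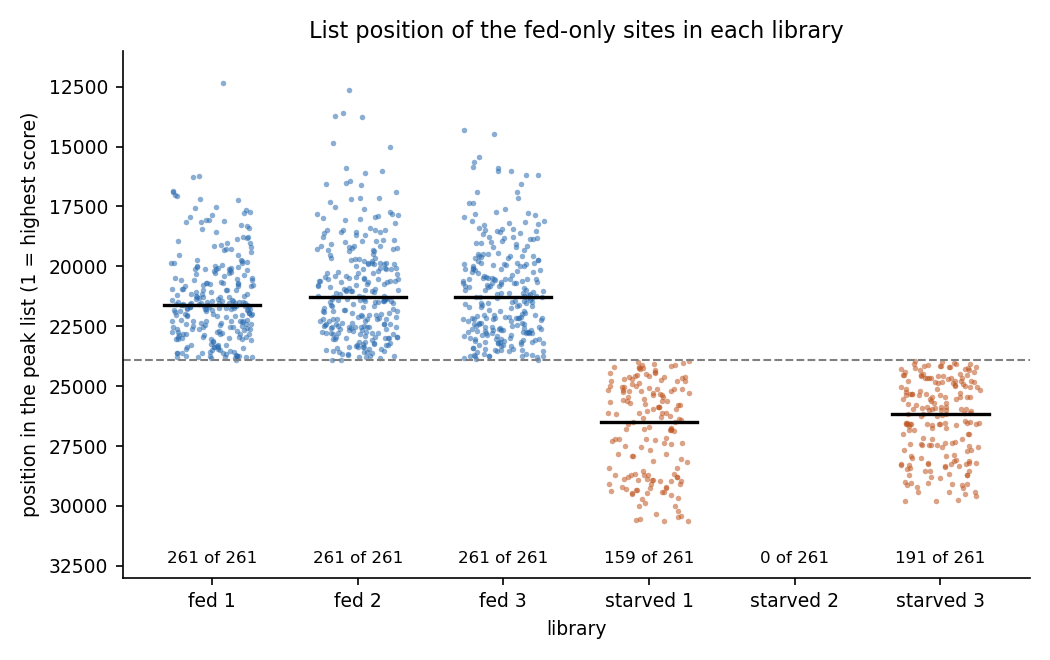
Position of each of the 261 fed-only sites (points) in the fed lists (blue) and, where a peak of lower score exists, in the full starved lists (orange), with the median as a black bar, the end of the equal-length lists at 23926 as a dashed line and the number of sites with a peak under each column. The fed medians lie between 21274 and 21625, and starved 2 has no point.

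Few fed-only sites stood far from the end of the lists. By worst fed position, 14 of them lay at 20000 or better and 112 (42.9%) within 1000 places of the end. Grouped in steps of 2000 places, no site up to position 14000 was fed-only. The share was 1 of 2107 sites between 14001 and 16000, 2 of 2164 to 18000 and 11 of 2067 (0.53%) to 20000. It was 62 of 1962 (3.16%) to 22000 and 185 of 1777 (10.4%) between 22001 and 23926. In that last step 40.5% of the same 1777 sites were kept in every starved list too.

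**Figure D2:**
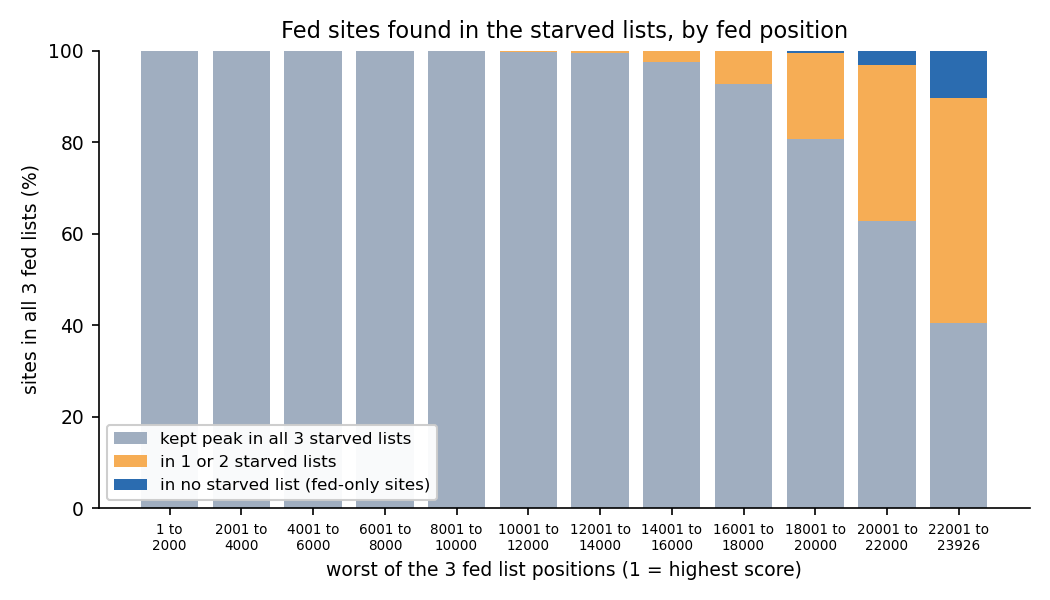
Share in percent of the sites in all 3 fed lists (bars, grouped by worst fed position) that had a kept peak in all 3 starved lists (grey), in 1 or 2 (orange) or in none (blue, the fed-only sites). The blue part is absent up to position 14000 and reaches 10.4% in the last group.

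Most fed-only sites did have starved peaks below the limit. Of the 261, 159 (60.9%) had a peak in the full list of starved 1, at positions 23965 to 30641 (median 26487) and scores of 2.87 to 10.8, and 191 (73.2%) had one in that of starved 3, at positions 23955 to 29805 (median 26170) and scores of 2.79 to 10.7. Both libraries held a lower peak at 124 sites (47.5%), starved 1 alone at 35, starved 3 alone at 67 and no starved library at 35 (13.4%). Starved 2 held none, since its whole list was kept. Of all 21707 sites in the 3 fed lists, 98.3% had a peak of any score in starved 1, 94.8% in starved 2 and 99.3% in starved 3. At the 226 fed-only sites with a lower starved peak, the better of the starved positions lay 3260 places below the worst fed position in the median, from 313 to 10917. For 45 of them the gap was under 2000 places and for 58 it was over 5000.

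The site with the best worst position lay inside Wfdc9 and over the promoter of Wfdc10, genes of small proteins with a whey acidic protein domain that resemble protease inhibitors (chr2:164655503-164656358). It held positions 12353, 13608 and 15652 in fed 1, 2 and 3, and 26579 and 26569 in the full lists of starved 1 and 3. That starved peaks lie past all fed positions is fixed by the rule, here and at each fed-only site. The next lay inside Eif4e2, a cap-binding protein that represses translation (chr1:87217824-87218704), at 16259, 16028 and 14328 in the fed lists and at 25688 and 25732 in starved 1 and 3. A site outside Shq1, an assembly factor of small nucleolar ribonucleoproteins, lay 7774 bp from the gene (chr6:100563619-100564455), at 17041, 17542 and 15913, with a peak at 27495 in starved 3 and none in starved 1.

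Starved 1 and starved 3 differed in whether they held a lower peak at the first of the next 3 sites and not at the others. The first, a site 8920 bp from the noncoding gene Gm28876 (chr15:103113039-103113597), held fed positions 16858, 15875 and 18139, with a peak at 26127 in starved 1 and none in starved 3. Inside Maats1, which encodes a protein of cilia and flagella (chr16:38321301-38322025), the fed positions were 17214, 17196 and 18450 and the starved ones 24604 and 24675, just past the limit. The site inside Vps41, a subunit of the complex that tethers vesicles to lysosomes (chr13:18757988-18758398), held 17663, 16620 and 18773 in the fed lists and had no peak in any starved list. It is the only one of the first 12 without a starved peak.

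The remaining 6 of the first 12 had worst fed positions from 19116 to 19870. They lay 29107 bp from Igsf11, a cell adhesion protein (chr16:39055850-39056681), and inside the noncoding gene Gm30515 (chr12:27059763-27060445). Others lay inside Syne3, which links the nuclear envelope to the cytoskeleton (chr12:104933018-104934099), and inside Fes, a tyrosine kinase of myeloid cells (chr7:80379171-80380190). The last were inside the noncoding gene 1700019L22Rik (chr8:50293447-50294068) and inside Gtf2f2, a subunit of the general transcription factor TFIIF (chr14:75934212-75934850). Gtf2f2 came closest to being kept in a starved list, at 23996 in starved 1 and 24673 in starved 3. The annotation used has no exons, so whether a site inside a gene is exonic or intronic is not given.

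**Figure D3:**
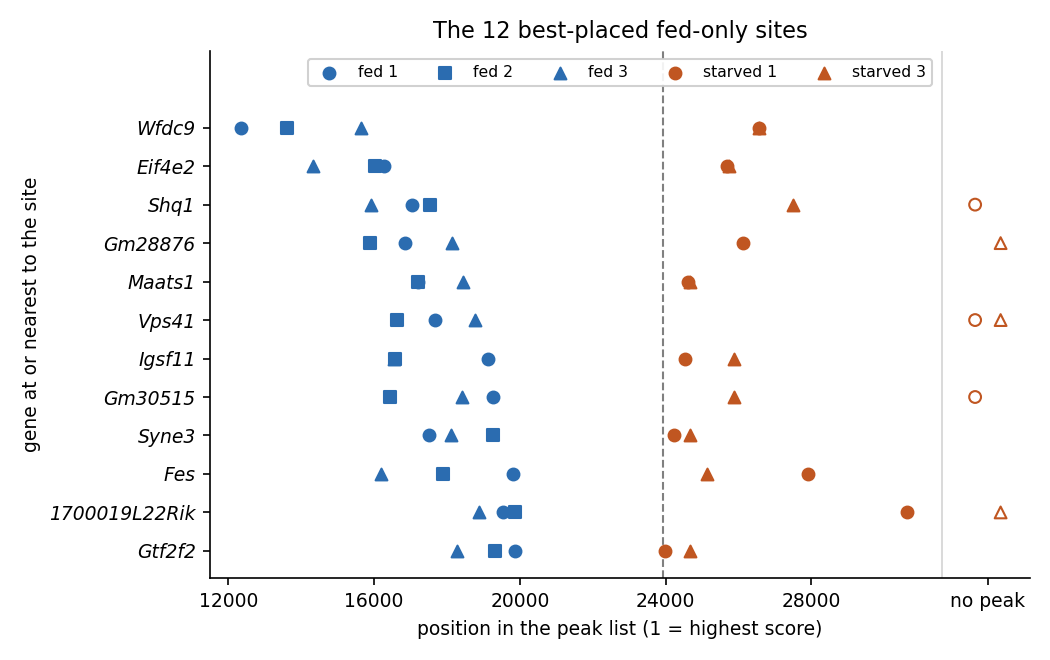
Positions of the 12 fed-only sites with the best worst fed position in the fed lists (blue) and the full lists of starved 1 and 3 (orange), 1 row per site, with the end of the equal-length lists as a dashed line and open symbols at the right where the library has no peak. Fed symbols lie between 12353 and 19870 and starved ones past 23926; starved 2 has no peak at any of them and is not drawn.

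The 35 sites without a starved peak of any score are the strictest fed-only set in these lists. Their median worst fed position was 22672, close to the 22700 of all fed-only sites, and their fed peaks had median widths of 391, 379 and 531 bp in fed 1, 2 and 3, against 495, 412 and 564 bp over all 261. After Vps41 came a site inside Prtg, an adhesion protein of the early neural tube (chr9:72889798-72890354), at 18075, 20272 and 20489. Neurl1b, a ubiquitin ligase of Notch signalling, lay 43793 bp from its site (chr17:26370689-26371442), which held 18322, 21220 and 20705. A site 42184 bp from the small nuclear RNA gene Gm27521 (chr4:96874637-96875034) held 21297, 19633 and 20060.

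The last of the first 6 were at Ces2h and Prkag1. Ces2h, a carboxylesterase gene, was 2932 bp from its site (chr8:105023139-105023544), which held 21489, 19081 and 20736 in fed 1, 2 and 3. Prkag1, the gene of a gamma subunit of AMPK, a kinase that senses cellular energy, contained its site 8777 bp from a gene end (chr15:98821344-98821804), at 21568, 16108 and 20449. The fed 2 position was 4341 places better than the next one at Prkag1.

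Listed genes of liver metabolism, its regulators and CTCF itself had 1 fed-only site close by. Over 21 gene lists with 357 matched genes, 208 sites in all 3 fed lists lay within 5 kb of an annotated end of a listed gene, and 1 of them (0.48%, beside 1.2% over all sites) was fed-only. It was the site inside Cyp2e1, the ethanol-oxidising cytochrome P450 of hepatocytes, 2648 bp from a gene end (chr7:140766240-140766694). Cyp2e1 held positions 23051, 21606 and 23051 in the fed lists and 28194 in starved 3, with no peak in starved 1. No fed-only site lay near the listed genes of nuclear receptors (25 sites in all 3 fed lists) or of insulin and nutrient signals (21). Nor was there one near the listed genes of fatty acid and triglyceride synthesis (19), amino acid and urea metabolism (18) or autophagy (12). The same held for the lists of fatty acid oxidation with ketogenesis (11), gluconeogenesis (10), the circadian clock (9), sterols (5) and bile acids (2). It also held for those of housekeeping genes (13), imprinted genes (12), CTCF with cohesin (11), stress of the endoplasmic reticulum (11) and the acute phase with inflammation (5). Hepatocyte identity had 16 sites, of which Cyp2e1 was the fed-only one. The lists are short, from 0 to 25 sites each, and no list was tested. They do not hold every gene of a role. Genes outside them had fed-only sites close by, such as Hsd17b7 (1286 bp from a gene end) and Cxcl2 (920 bp).

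Anywhere inside listed genes, also within 5 kb of an end as at Cyp2e1, the share was close to the background. Of 249 sites in all 3 fed lists with their midpoint inside a listed gene, 4 (1.61%) were fed-only. Besides Cyp2e1 and Prkag1 these were the sites in Pds5b and Atg5, chosen after their values were seen. Pds5b, a regulator of cohesin release (chr5:150717701-150718446), held 20150, 22515 and 22405 in the fed lists and 28395 in starved 1, with none in starved 3. Atg5, which helps to attach LC3 to autophagic membranes (chr10:44328259-44328728), held 23488, 18917 and 21313, and 27393 and 27154 in starved 1 and 3. Markers of other liver cells touched none of the fed-only sites within 5 kb. In all 3 fed lists, Kupffer cell and macrophage markers had 0 sites, endothelial markers 2, stellate cell and fibroblast markers 5, cholangiocyte markers 1 and lymphocyte markers 2. Peak lists hold no expression, so the tissue itself was not checked with these genes.

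At promoters, the fed-only sites fell on genes of many roles. After Wfdc10 came Slc29a1, an equilibrative nucleoside transporter (chr17:45593619-45594158), at 20981, 19994 and 19625 in fed 1, 2 and 3 and at 24607 and 27354 in starved 1 and 3. The next were Cmtm8, a membrane protein of the chemokine-like factor family (chr9:114843950-114844813), and Fam98c (chr7:29155383-29156561). They were followed by Fndc1, a fibronectin domain protein (chr17:7827041-7827677), and Arf5, a small GTPase of vesicle traffic (chr6:28423598-28424546). These 4 had a lower peak in both starved 1 and starved 3, at positions from 24325 to 26513.

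Ripk1, a kinase of cell death and inflammatory signalling, shared its site (chr13:34001959-34002763) with the window of the neighbouring serpin gene Serpinb6a. It held 19387, 22373 and 20001 in the fed lists and 28955 in starved 1, with none in starved 3. Ms4a19, of the membrane-spanning MS4A family (chr19:11165099-11165716), held 22390, 21832 and 20891 and had no starved peak. The noncoding gene Gm33655 (chr4:114635640-114636431) and Stox1, a winged helix transcription factor (chr10:62725668-62726205), had a lower peak in starved 3 alone, at 24013 and 28391. Of the other sequences shown, the site at Scn8a, a neuronal sodium channel (chr15:100870221-100870793), had a peak at 24801 in starved 3, and that at Gpr3, an orphan receptor (chr4:133212603-133213320), had no starved peak.

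The share of fed-only sites close to a gene end was near that of shared sites in the same range of positions. It was smaller than that of starved-only sites. The midpoint was within 1 kb of an annotated gene end for 40 fed-only sites (15.3%, exact 95% interval 11.2 to 20.3). It was within 5 kb for 102 (39.1%, 33.1 to 45.3). Over the 5995 shared sites from worst position 15652 on, the range of the fed-only sites, the shares were 16.6% and 42.4%. The median worst position of these shared sites was 18689, against 22700 for the fed-only sites. For the 2155 sites in all 3 fed and 1 or 2 starved lists, with a median of 21503, the shares were 17.4% and 42.0%. Over all 19291 shared sites they were 19.4% and 47.4%. Over the 103 starved-only sites (0.511% of the 20149 sites in all 3 starved lists) they were 31.1% (22.3 to 40.9) and 57.3% (47.2 to 67.0). The starved-only sites had a median width of 303 bp, against 614 bp for the fed-only sites, and were not matched to them on position. The intervals of fed-only and starved-only sites did not overlap for either window. Within 20 kb the shares were 72.4% (66.6 to 77.7) and 85.4% (77.1 to 91.6), and there the intervals overlapped. All these intervals cover counting error alone, sites are not replicates, and no test of these differences was made.

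Inside an annotated gene lay 150 fed-only sites (57.5%, exact 95% interval 51.2 to 63.5). The share was 58.7% for the shared sites in the same range of positions. It was 61.7% for the sites in all 3 fed and 1 or 2 starved lists. For the starved-only sites it was 71.8% (62.1 to 80.3), an interval that overlaps that of the fed-only sites. Of the 150, 126 were inside a protein-coding gene and 24 inside noncoding genes or pseudogenes only. Over 50 kb from any gene end lay 23 fed-only sites (8.81%, 5.67 to 12.9). This was so for 7.41% of the shared sites in the same range of positions. Of the sites in all 3 fed and 1 or 2 starved lists it was so for 9.51%. By chromosome, the share of fed-only sites among those in all 3 fed lists ran from 0.53% on chromosome 11 (9 of 1683, exact 95% interval 0.24 to 1.01) to 1.94% on chromosome 10 (22 of 1135, 1.22 to 2.92). Chromosome Y had 0 of 8 sites and is left out of that range.

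**Figure D4:**
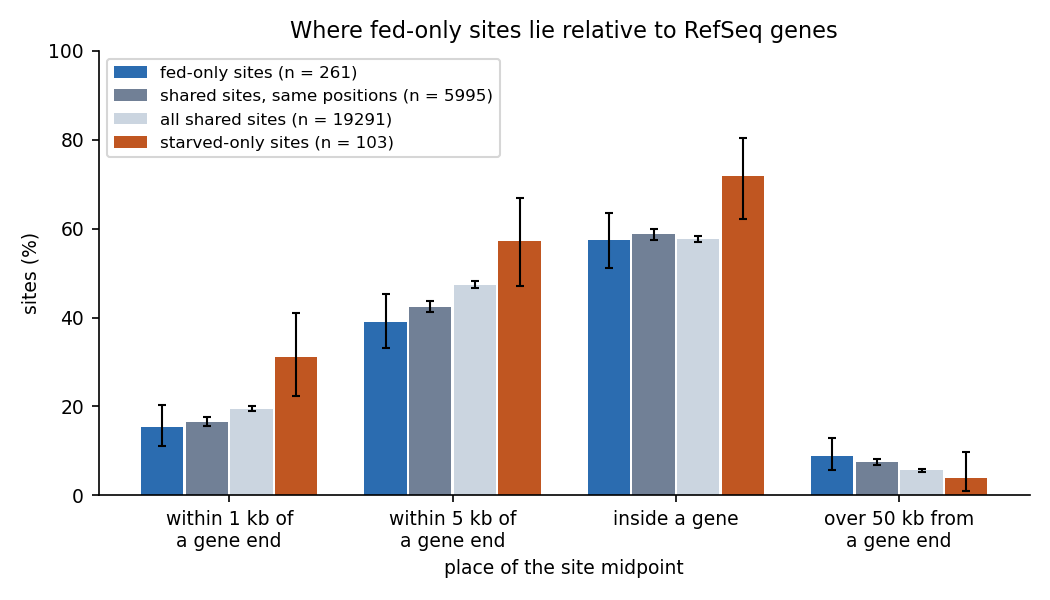
Share in percent of sites whose midpoint lay within 1 or 5 kb of a RefSeq gene end, inside a gene or over 50 kb from a gene end, for fed-only sites (blue), shared sites in the same range of positions (dark grey), all shared sites (light grey) and starved-only sites (orange), with exact 95% intervals as error bars. Within 1 kb lie 15.3% of fed-only sites, 16.6% of shared sites in the same range and 31.1% of starved-only sites.

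Near the end of the lists the fed-only sites had narrower fed peaks than shared sites. Between positions 22001 and 23926, where 185 of them lay, their median peak width was 476, 405 and 554 bp in fed 1, 2 and 3, against 520, 426 and 592 bp for the 720 shared sites. Between 20001 and 22000 it was 504, 445 and 580 bp against 555, 467 and 631 bp. Between 18001 and 20000, where 11 fed-only sites lay, it was 563, 477 and 683 bp against 612, 519 and 688 bp. All 3 fed libraries had the narrower median at fed-only sites in each of these steps. Before position 18001, where 3 fed-only sites lay, it was wider in some libraries: 824 bp against 686 bp in fed 1 and 779 against 765 bp in fed 3 up to 16000, and 583 against 546 bp in fed 2 and 825 against 726 bp in fed 3 up to 18000. Narrow peaks were not particular to fed-only sites. Sites in all 3 fed and 1 or 2 starved lists had median widths of 528, 442 and 616 bp in fed 1, 2 and 3. Those of all fed-only sites were 495, 412 and 564 bp, and those of shared sites from worst position 15652 on 600, 513 and 686 bp. Width enters the rule, since a wide peak can overlap more starved peaks, so this is a description without a test.

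Most fed-only sites had no other fed-only site within 200 kb. The median distance to the next fed-only site was 2795188 bp, and 21 of the 261 had another within 200 kb, in 10 groups. No background stands beside these counts, so whether the sites are clustered or scattered was not tested. The largest group held 3 sites over 235204 bp of chromosome 2, inside Fam102a (chr2:32536523-32537261), St6galnac6 (chr2:32617540-32618044) and Ttc16 (chr2:32771736-32772456). Their worst fed positions were 22602, 22411 and 22922. St6galnac6 is a sialyltransferase. The other groups named here held 2 sites each. The site in Eif4e2 was paired with one 10309 bp from Alpi, an intestinal alkaline phosphatase gene (site at chr1:87111561-87112268). A site inside Edar, the ectodysplasin receptor gene (site at chr10:58627490-58628037), was paired with one inside Sh3rf3 (site at chr10:58812039-58812839). Sites inside Tiprl, a regulator of type 2A phosphatases (site at chr1:165240808-165241359), and inside Dcaf6 (site at chr1:165388606-165389161) formed the next pair. The last pair lay outside genes, with a site 18626 bp from the microRNA gene Mir124a-3 (site at chr2:180875027-180875800) and one 2051 bp from Ythdf1, a reader of methylated adenosine in RNA (site at chr2:180902059-180902592).

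Whether the CTCF map around the fed-only sites also differed was asked of other peaks, the shared sites, which the choice of fed-only sites did not use. Of the 261, 212 had a shared site within 100 kb, at a median of 16822 bp, and these were 209 distinct sites. The median percentile of those neighbours (100 for the highest score), less the median of all shared sites in the same library, was −2.01, −0.28 and −0.13 points in fed 1, 2 and 3 and −3.58, −3.80 and −1.82 points in starved 1, 2 and 3. Starved 3 lay within the fed range and the others below it. The means were −0.81 ± 1.04 in fed and −3.07 ± 1.09 in starved libraries (SD, n = 3 each), a difference of −2.26 points with p = 0.2 in a two-sided exact permutation test over 20 labellings, where 0.1 is the smallest p possible. Neighbours within 20 kb gave −2.25 points (exact permutation p = 0.3) and those within 500 kb −3.33 points (exact permutation p = 0.1). Taken site by site, the median change of the neighbours from the fed to the starved mean was 0.20 points, of the opposite sign, and −0.20 points over all shared sites. Every starved percentile lay below every fed one at 18 of the 209 neighbours (8.61%, beside 7.77% of all shared sites) and above at 13 (6.22%, beside 7.26%).

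**Figure D5:**
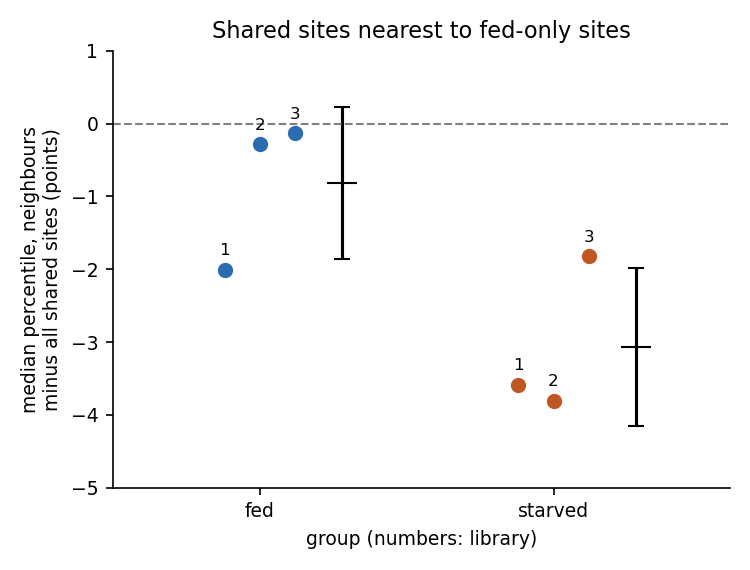
Median percentile of the shared sites nearest to fed-only sites, minus that of all shared sites, in points for each library (numbered points), with the group mean ± SD in black. Starved libraries 1 and 2 lie below all fed libraries and starved 3, at −1.82, lies above fed 1, at −2.01.

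Which sites were fed-only depended on the length of the lists. With the best 17944 peaks of each library 156 sites were fed-only and 3 of the 261 were among them, those at Wfdc9, Eif4e2 and Shq1. With 11963 peaks 151 sites were fed-only and 0 of the 261 were among them, as a site cannot be counted when its fed peaks lie past the end. At the full length of 23926, the last site inside was near Sinhcaf (chr6:148916632-148917360), with positions 21002, 19775 and 23926 in fed 1, 2 and 3 and its better starved peak at 25180. The next were inside the noncoding gene Gm16196 (chr17:29022222-29022737), at 23893, 23917 and 22925 with no starved peak, and inside Mfsd10 (chr5:34636509-34637238), at 20123, 23916 and 18975. Just outside were sites at Msra (chr14:64127890-64128887), Far2 (chr6:148104174-148104745) and Shroom1 (chr11:53466393-53467063), each excluded by 1 starved peak, at 23919 in starved 1, 23891 in starved 1 and 23890 in starved 3.

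The number of fed-only sites also rested on single libraries. It was 405 without fed 1, 402 without fed 2, 389 without fed 3, 409 without starved 1, 511 without starved 2 and 478 without starved 3, each of which removes 1 condition from the rule. Among the sites in all 3 fed lists, starved 1 alone kept 148, starved 2 alone 250 and starved 3 alone 217. With peaks trimmed to 200 bp around their midpoint, 395 sites were fed-only and 371 starved-only, in place of 261 and 103. While 35 fed-only sites had no starved peak of any score, 0 starved-only sites had no fed peak of any score, and the full fed lists are the longer ones.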

How the data were processed

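CTCF ChIP-seq peak lists of 3 fed and 3 starved liver libraries were used, grouped and numbered by the sample titles. The 6 input libraries were not analysed here. Each deposited list gives chromosome, start, end, name and a score per peak, a value whose meaning the labels do not state. The submitters' processing notes name HOMER, MACS2, bedtools 2.17, SAMtools, FastQC and BWA 0.7.5a without roles, and the build mm10. For read depth and the use of the inputs, nothing was given in the sources read.

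Peaks were ordered by score, with ties by chromosome name and start, and coordinates are counted from 1. Sites, positions and neighbours were computed as the report states. Genes and promoter windows came from RefSeq GRCm38.p6, with positions of 49943 genes, no exons, and no windows for the 7 fed-only sites on chromosome 18. Of 358 listed genes 357 matched. Shares have exact binomial (Clopper-Pearson) 95% intervals. The neighbour values were compared by exact permutation over libraries; no other test was made, because the lists chose the sites. The members and the gene lists were chosen with earlier results of these data known. Named were the first 12 sites by worst fed position, the first 6 without any starved peak, 3 on each side of the limit, up to 4 per gene list within 5 kb, up to 10 at promoters and 5 groups within 200 kb. Alternatives were other list lengths, merging, ties, chromosomes, windows, motif letters, leaving out each library and a replicate block. The site counting was tested on simulated data. Computation used scipy 1.17.1, numpy 2.4.6 and pandas 2.3.3 in Python 3.11.15, and figures matplotlib 3.10.9.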

Additional observations from a re-analysis of the deposited data

How the results depend on the processing

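The 261 fed-only sites were 252 with peaks joined within 500 bp, 266 without merging, 263 with ties in reverse order and 258 on autosomes. They were 151 and 156 with lists of 11963 and 17944 peaks, 395 with peaks trimmed to 200 bp, 667 when 2 of 3 fed lists sufficed, 35 when no starved peak of any score was allowed, 855 without starved 2 at the next shortest length of 29866, and 389 to 511 when 1 library was left out. The 103 starved-only sites were 128 and 105 with lists of 11963 and 17944 peaks, where the fed-only ones were 151 and 156. They were 371 when trimmed, 579 with 2 of 3 lists and 0 when no fed peak of any score was allowed. Without starved 2 at the length of 29866 they were 489, and 167 to 318 when 1 library was left out. Fed-only outnumbered starved-only sites in each of these settings. The causes of these moves were not tested beyond what the rules themselves change.

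The neighbour difference of −2.26 points in library medians kept its sign in all settings of that measure. It ran from −1.89 to −3.33, with exact permutation p between 0.1 and 0.3. Taken site by site, the median change of the neighbours was 0.20 points, of the opposite sign. Same-numbered libraries did not deviate together over shared sites (correlations 0.01, −0.03 and 0.01). These values cannot tell whether such libraries shared a batch, which the labels do not state. With the replicate block the difference was −2.26 points with p = 0.25 in an exact sign-flip test, the smallest it allows. Near gene ends lay 39.1% of fed-only sites within 5 kb and 72.4% within 20 kb, and 48.3% lay inside protein-coding genes. The motif search in 200 bp around site midpoints was not run, since sequence was used for promoter windows alone. Ties at the limit were few, 4 to 51 peaks per list. Read depth is unknown, so how far it sets the starved scores was not tested.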
